A study of Mus musculus with 6 samples.

Results

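The genes described here encode the subunits of the AMPA and kainate receptors, 4 Gria genes and 5 Grik genes, which were measured in the adult hypothalamus of female C57Bl/6J mice. They were chosen by gene symbol among the array's probesets, the sets of probes that stand for a transcript, and they are 9 of the 17072 genes that had a probeset of their own. Every one of the 9 had 1 such probeset, so that no choice between probesets had to be made. The CGP group were offspring of dams dosed orally with CGP 39551, an antagonist of the NMDA receptor, at 5 mg/kg body weight for the whole pregnancy and up to the end of weaning, and the CON group were control offspring with no treatment named. Both groups were killed at 21 weeks of age, RNA of 18 mice was pooled in each, and each group had 3 arrays. The labels do not tell whether these 3 arrays were separate pools or repeats of 1 pool. Errors and p-values therefore cover differences among arrays, possibly technical ones, and differences among mice were not measured.

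AMPA and kainate receptors are ion channels built of 4 subunits that open when glutamate binds. AMPA receptors carry most of the fast excitatory current at brain synapses, and the depolarization they bring relieves the magnesium block of the NMDA receptor, the target of CGP. Kainate receptors act on both sides of the synapse, where they adjust transmitter release and add a slower current. Subunit composition sets the properties of the channel. An AMPA receptor with an edited GluA2 subunit passes little calcium, and the high-affinity kainate subunits GluK4 and GluK5 form channels only together with GluK1, GluK2 or GluK3.

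Of the 9 genes, none passed the test between CGP and CON (limma, Benjamini-Hochberg adjusted p between 0.760 and 0.995), and none had an unadjusted p under 0.05. Over all 18239 tested probesets 0.28% passed, 0.154% higher and 0.126% lower in CGP, and 11.1% had an unadjusted p under 0.05. The differences, CGP minus CON on the log2 scale where 1 is a 2-fold change in signal, lay between -0.026 (Gria3) and 0.033 (Grik5). All 9 were smaller in size than the median absolute difference of the tested probesets, 0.045. With signs kept, the median difference was 0.0013 over the 9 genes and -0.0031 over all tested probesets. A missed threshold does not show that a gene was the same in both groups, but the 95% intervals bound what these arrays leave room for. The interval of each of the 9 genes stayed within 1.2-fold either way, as did 89.8% of tested probesets, and that of 7 of the 9 stayed within 1.1-fold, as did 34.9% of tested probesets. The exceptions to the narrower bound were Gria3, with a lower end of 0.894-fold, and Grik1, with an upper end of 1.11-fold.

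**Figure D1:**
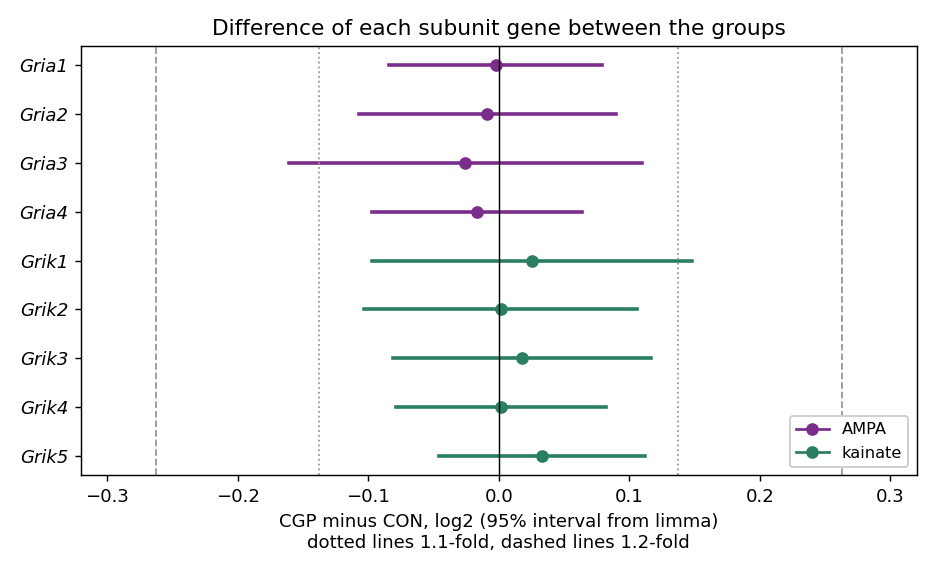
Difference of each subunit gene between the groups. The horizontal axis is CGP minus CON on the log2 scale with its 95% interval from limma (3 arrays in each group), the rows are the 9 genes, and dotted and dashed lines mark 1.1-fold and 1.2-fold; every interval crosses 0 and lies inside the dashed lines, and those of Gria3 and Grik1 reach past the dotted lines.

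The labels were set against the data. One protocol text speaks of adrenal glands while title, source and extraction name the hypothalamus, and the hypothalamic peptide genes Hcrt (12.50 to 12.56 in CGP, 12.45 to 12.55 in CON), Pmch and Oxt gave bright signals on all 6 arrays. Of the 7 hypothalamus markers tested, none passed, 3 had differences above 0 and 4 below (mean signal of the list 10.56 to 10.59 in CGP and 10.59 to 10.61 in CON). The groups did not overlap for 3 of the 7, Oxt, with all CGP arrays above, and the transcription factor genes Sim1 (-0.11, limma adjusted p = 0.325) and Nkx2-1 (-0.14, limma adjusted p = 0.422), with all CGP arrays below. Of all tested probesets, 17.5% had groups that did not overlap. Array medians lay between 8.19 and 8.21 over the whole table. Over the tested probesets they lay between 8.48 and 8.53 in CGP and between 8.51 and 8.52 in CON. The span among single CGP arrays was wider than the difference of group means of any of the 9 genes. The span among CON arrays was narrower than the largest of these differences. CGP replicate 1 stood apart from the other arrays on the second principal component (-9.67, against -0.013 to 4.78), so the differences without it are given after the gene accounts. On the first component it was at -0.90, within the span of the CON arrays (-8.75 to -0.74). CGP replicates 2 and 3 were at 8.05 and 6.40 there. Markers of tissues beside the hypothalamus differed between the groups. All 5 choroid plexus markers were on the higher side in CGP (mean signal of the list 8.99 to 9.05 in CGP and 8.67 to 8.72 in CON) and 1 passed, Ttr. Of 6 thalamus markers 5 were on that side (11.15 to 11.16 in CGP, 10.99 to 11.01 in CON) and 1 passed, Prkcd. Of 5 anterior pituitary markers 4 were on that side (11.02 to 11.04 in CGP, 10.77 to 10.88 in CON) and Gh and Lhb passed, while 5 of 6 meninges markers were on the lower side (8.28 to 8.38 in CGP, 8.62 to 8.68 in CON) and 4 passed, Ogn, Fmod, Prg4 and Slc6a20a. The groups did not overlap for 5 choroid plexus, 5 thalamus, 5 meninges and 3 anterior pituitary markers. General neuron markers (12.35 to 12.37 in CGP, 12.32 to 12.35 in CON), markers of cortex and hippocampus (8.46 to 8.53 in CGP, 8.48 to 8.50 in CON), astrocyte markers (10.42 to 10.49 in CGP, 10.51 to 10.52 in CON) and oligodendrocyte markers (11.58 to 11.63 in CGP, 11.65 to 11.71 in CON) had no call among 6, 3, 5 and 4 tested genes. Differences were below 0 for 4 of the 5 astrocyte and all 4 oligodendrocyte markers, and the groups did not overlap for 2 and 3 of them. They were below 0 for 2 of the 6 neuron and 1 of the 3 cortex and hippocampus markers, with groups apart for 3 and 0. The part of these differences in the values of the subunit genes, and of the partner genes given below, was not tested. In RNA of whole tissue, fewer cells of a type and less RNA per cell cannot be told apart.

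Among the AMPA receptor genes, Gria1 encodes GluA1, the subunit whose insertion at synapses is best known from long-term potentiation. Its log2 signal was 11.40, 11.46 and 11.41 on the CGP arrays, against 11.41, 11.42 and 11.43 on the CON arrays. The CON arrays lay inside the span of the CGP arrays, of which replicate 2 was the highest and replicate 1 the lowest of all 6. The difference was -0.0024 (standard error 0.035, 95% interval -0.084 to 0.079, limma adjusted p = 0.989).

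Gria2 encodes GluA2, whose messenger RNA is edited at the pore codon so that the channel takes up little calcium. It had 10.35, 10.24 and 10.26 on the CGP arrays, against 10.25, 10.33 and 10.29 on the CON arrays. CGP replicate 1 was the highest array and CGP replicate 2 the lowest, the other way round from Gria1. The difference was -0.0087 (standard error 0.043, 95% interval -0.11 to 0.090, limma adjusted p = 0.959).

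The start of Gria2 is shown because, of the promoters at hand for these genes, it alone held the letters of a well-known neuronal silencer element. REST, a repressor that keeps neuronal genes silent in other cells, binds the RE1 element, and the search asked for its half-sites, AGCACC and GGACAG in this order with 2 bases of any kind between them, on either strand within 250 bases before to 50 bases after each start site. RefSeq (GRCm38.p6) windows were at hand for 6 of the 9 genes, those of Gria2, Gria4, Grik2, Grik3, Grik4 and Grik5. A match stood in 1 of these 6, and 16 of the 27025 genes with a window, 0.0592%, had one. The stretch below lies at chr3:80802949-80803048 on the minus strand, 5′ to 3′ along the gene, all of it before the start site. Capitals mark the match, which reads on the opposite strand from 170 to 157 bases before the start.
Gria2: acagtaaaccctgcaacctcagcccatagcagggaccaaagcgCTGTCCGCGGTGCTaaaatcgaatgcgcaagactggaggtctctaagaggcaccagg
The match describes the letters only, and binding was not measured. The gene of REST itself, looked up after the values had been seen, had log2 signals of 7.71, 7.78 and 7.80 in CGP, against 7.78, 7.84 and 7.86 in CON. The groups overlapped, and the difference for Rest was -0.063 (standard error 0.041, limma adjusted p = 0.611). The 6 windows were rich in G and C, with 59.7% in Gria4, 64.7% in Grik2, 65.7% in Gria2, 70.0% in Grik4, 72.0% in Grik5 and 82.0% in Grik3, against a median of 52.7% over all windows.

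Gria3, the X-linked gene of GluA3, varied most between arrays among the 9 genes. It had 9.64, 9.60 and 9.45 in CGP, against 9.54, 9.66 and 9.56 in CON, so that the lowest array was CGP replicate 3 and the highest was CON replicate 2, 0.22 above it. The arrays of each group spread over more than the distance between the group means, 9.56 ± 0.099 in CGP and 9.59 ± 0.068 in CON (SD, n = 3 arrays each). The difference was -0.026 (standard error 0.059, 95% interval -0.16 to 0.11, limma adjusted p = 0.906).

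Gria4 encodes GluA4, which gives receptors with fast kinetics. Its signals were 9.88, 9.88 and 9.89 in CGP, against 9.89, 9.94 and 9.87 in CON. The CGP arrays lay close together and inside the span of the CON arrays, with an SD of 0.0054 in CGP and 0.032 in CON. The difference was -0.017 (standard error 0.035, 95% interval -0.097 to 0.063, limma adjusted p = 0.895).

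**Figure D2:**
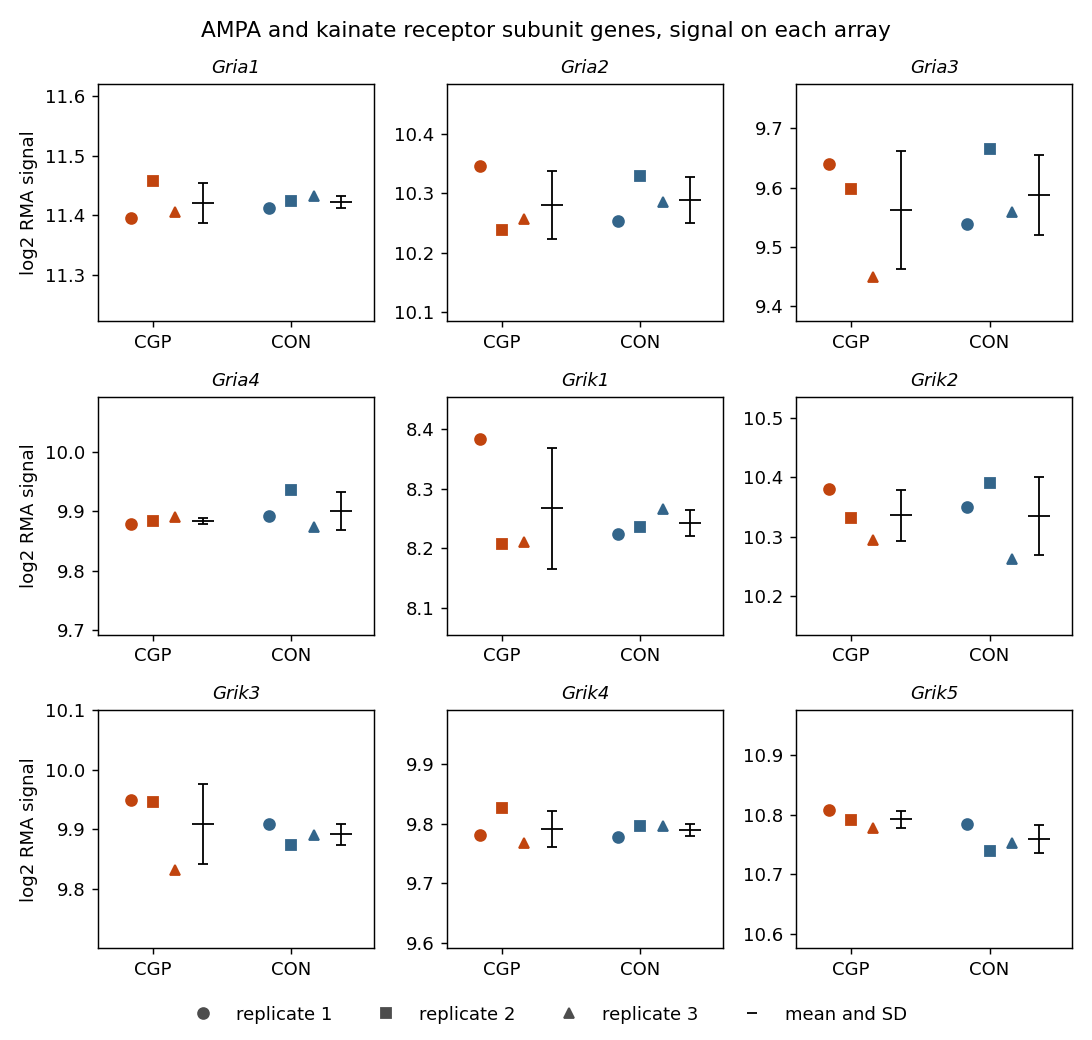
Log2 RMA signal of each subunit gene on each array. Each panel is 1 gene and spans 0.4 log2 units, orange symbols are the 3 CGP arrays and blue symbols the 3 CON arrays, symbol shape gives the replicate number, and the bar is the mean with its SD; the arrays of the groups overlap in every panel, most widely for Gria3, where CGP replicate 3 is the lowest array and CON replicate 2 the highest.

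The kainate receptor genes fall into those of the low-affinity subunits GluK1, GluK2 and GluK3, which can form channels by themselves, and those of the high-affinity subunits GluK4 and GluK5. Grik1, the gene of GluK1, had 8.38, 8.21 and 8.21 in CGP, against 8.22, 8.24 and 8.27 in CON. CGP replicate 1 lay above all other arrays and the remaining CGP arrays lay below every CON array, so that the sign of the difference rests on 1 array. It was 0.025 with all arrays (standard error 0.053, 95% interval -0.097 to 0.15, limma adjusted p = 0.899) and -0.033 without CGP replicate 1 (standard error 0.039, limma adjusted p = 0.726).

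Grik2, the gene of GluK2, whose messenger RNA is edited at the pore codon as that of Gria2 is, had 10.38, 10.33 and 10.30 in CGP, against 10.35, 10.39 and 10.26 in CON. The highest and the lowest array were both CON arrays, replicates 2 and 3, and the CGP arrays lay between them. The group means were 10.34 ± 0.043 in CGP and 10.33 ± 0.065 in CON (SD, n = 3 arrays each). The difference was 0.0013 (standard error 0.045, 95% interval -0.10 to 0.11, limma adjusted p = 0.995).

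Grik3 encodes GluK3, a subunit of low glutamate affinity. It had 9.95, 9.95 and 9.83 in CGP, against 9.91, 9.87 and 9.89 in CON. CGP replicates 1 and 2 lay above every CON array and CGP replicate 3 below every CON array. The difference was 0.018 (standard error 0.043, 95% interval -0.081 to 0.12, limma adjusted p = 0.913).

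Grik4, the gene of GluK4, had 9.78, 9.83 and 9.77 in CGP, against 9.78, 9.80 and 9.80 in CON. As in Gria1, CGP replicate 2 was the highest array and the CON arrays lay inside the span of the CGP arrays. The whole range over the 6 arrays was 0.058, the narrowest of the 9 genes. The difference was 0.0016 (standard error 0.035, 95% interval -0.079 to 0.082, limma adjusted p = 0.993).

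Grik5 encodes GluK5, the partner subunit of many brain kainate receptors, and came closest to a separation of the groups. It had 10.81, 10.79 and 10.78 in CGP, against 10.79, 10.74 and 10.75 in CON. CON replicate 1 lay above CGP replicate 3, and the other CON arrays lay below all CGP arrays. The difference was 0.033 (standard error 0.034, 95% interval -0.046 to 0.11, limma adjusted p = 0.760), a 1.02-fold higher signal in CGP. Its exact two-sided permutation p was 0.20, the lowest of the 9 genes, where 3 arrays against 3 cannot give less than 0.10.

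None of the 9 genes had groups that did not overlap. Of the tested probesets 17.5% had such groups, and a list of 9 genes is too short to be told apart from that share. The 4 AMPA genes had differences below 0 and the 5 kainate genes above 0, with medians of -0.013 and 0.018, each well inside its genes' intervals. These signs were not steady. With each array centred on its median, 2 of the 4 AMPA genes were below 0, and without CGP replicate 1, 3 of the 4 AMPA genes were below 0 and 2 of the 5 kainate genes above it. Without CGP replicate 3 or without CON replicate 2, 1 of the 4 AMPA genes was below 0, and without CGP replicate 2, 3 of the 5 kainate genes were above it. Without CGP replicate 1 the differences were 0.0096 for Gria1, -0.041 for Gria2, -0.064 for Gria3 and -0.015 for Gria4 among the AMPA genes. Among the kainate genes they were -0.033 for Grik1, -0.021 for Grik2, -0.0024 for Grik3, 0.0069 for Grik4 and 0.025 for Grik5. The signs of Gria1, Grik1, Grik2 and Grik3 thus turned, and none of the 9 passed (limma adjusted p 0.658 to 0.985). By array, CGP replicate 1 was the highest of the 6 for Gria2, Grik1, Grik3 and Grik5, and CGP replicate 3 was the lowest for Gria3, Grik3 and Grik4. Averaged over the 9 genes, the deviation from each gene's own mean was 0.037, 0.0054 and -0.038 on the CGP arrays, against -0.0097, 0.018 and -0.012 on the CON arrays. The highest and the lowest of these 6 values both belonged to CGP arrays.

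**Figure D3:**
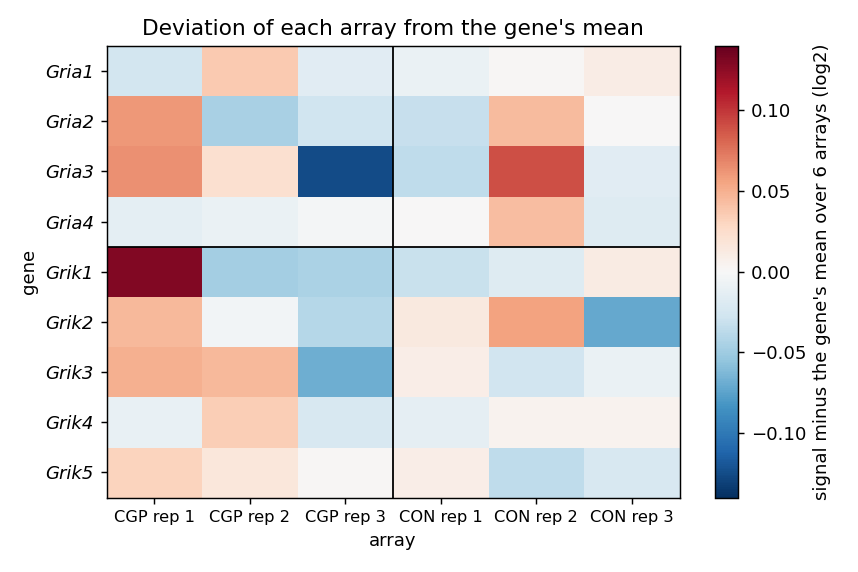
Deviation of each array from the mean of the gene over the 6 arrays, on the log2 scale (colour). Columns are the arrays, CGP left and CON right of the vertical line, and rows are the genes, AMPA above and kainate below the horizontal line; red and blue alternate within both groups, with the strongest red at Grik1 on CGP replicate 1 and the strongest blue at Gria3 on CGP replicate 3.

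The spread between arrays was small for several of the genes. The residual SD within groups was 0.020 for Grik5, 0.023 for Grik4 and Gria4 and 0.025 for Gria1, at or below which lay 3.73%, 6.03%, 6.17% and 8.03% of the tested probesets. That of Gria3 was 0.085 and that of Grik1 0.073, above the median of 0.057 over all tested probesets. Signals lay between 8.21 and 11.46, well above the level of 6 under which probesets were left out. Levels were not compared between genes, since probes differ in how strongly they bind. Each probeset gives 1 value for a gene, so flip and flop splice forms and edited and unedited transcripts were not told apart, and subunits of 1 family share sequence that probes may both detect.

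The gene with the smallest unadjusted p, Grik5, was set against the 16654 other tested genes by Pearson correlation over the 6 arrays. The highest values were those of Rusc2 (r = 0.991), Mast4 (r = 0.989) and Cacng4 (r = 0.988). They describe 6 arrays that share 2 groups and 1 normalization, and with so many genes compared high values are found for any pattern. Rusc2 had 9.76, 9.74 and 9.72 in CGP, against 9.73, 9.65 and 9.67 in CON, with CON replicate 1 inside the span of the CGP arrays as in Grik5. None of these genes passed the test between the groups (limma adjusted p = 0.621, 0.506 and 0.574).

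Receptor subunits work with partner proteins, and 36 partner genes were read from the same fit. Of these, 33 were tested, and the others were not analysed here. None passed (limma), 5 had an unadjusted p under 0.05 (15.2%, against 11.1% of all tested probesets), and 32 of the 33 had a 95% interval within 1.2-fold either way. The difference was above 0 for 22 of the 33 (66.7%, against 47.9% of all tested probesets), with a median of 0.023. The groups did not overlap for 14 of the 33, with all CGP arrays above in 12 (36.4%, against 7.59% of all tested probesets) and below in 2 (6.06%, against 9.95%). Without CGP replicate 1, these were 12 above and 4 below, against 14.5% and 19.4% of all tested probesets. Markers of tissues beside the hypothalamus differed as well. Those of thalamus had 5 differences above 0 and 1 below (median 0.19), and those of meninges 1 above and 5 below (median -0.34). The part of such tissue in the values of the partner genes was not tested.

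Of the AMPA receptor auxiliary subunits, which change closing and desensitization of the channel in differing ways or steer it to the synapse, 12 of 13 were tested. Differences were above 0 for 10 and below 0 for 2, with a median of 0.054. The groups did not overlap for 5 of the 12, Cacng5, Gsg1l, Shisa6, Shisa7 and Shisa9, against 17.5% of all tested probesets. Cacng5, a member of the TARP family, had 9.51, 9.45 and 9.39 in CGP, against 9.37, 9.37 and 9.33 in CON, a difference of 0.092 (standard error 0.041, limma adjusted p = 0.457). All CGP arrays were above all CON arrays. The cornichon gene Cnih3 had 8.74, 8.93 and 8.73 in CGP, against 8.91, 8.88 and 8.90 in CON, a difference of -0.096 (standard error 0.057, limma adjusted p = 0.574), and here the groups overlapped through CGP replicate 2.

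The kainate receptor auxiliary subunits Neto1 and Neto2, which slow the decay of kainate currents, both had differences below 0. Neto1 had 9.92, 9.91 and 9.87 in CGP, against 9.98, 10.01 and 9.89 in CON, a difference of -0.059 (standard error 0.042, limma adjusted p = 0.644). Neto2 had 9.22, 9.08 and 9.12 in CGP, against 9.17, 9.20 and 9.17 in CON, a difference of -0.041 (standard error 0.044, limma adjusted p = 0.766). The arrays of the groups overlapped for both genes.

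Among 4 genes of AMPA receptor assembly in the endoplasmic reticulum, all CGP arrays lay above all CON arrays for Frrs1l, Cpt1c and Porcn, and the groups overlapped for Abhd6. Of all tested probesets, 7.59% had all CGP arrays above. Cpt1c, a brain form of carnitine palmitoyltransferase, had 10.47, 10.44 and 10.40 in CGP, against 10.37, 10.32 and 10.37 in CON, a difference of 0.085 (standard error 0.038, limma adjusted p = 0.457). Porcn, better known for acylating Wnt proteins, had 10.44, 10.52 and 10.42 in CGP, against 10.36, 10.36 and 10.41 in CON, a difference of 0.084 (standard error 0.040, limma adjusted p = 0.494). Of the 5 genes of scaffolds and trafficking proteins, the largest difference was that of Dlg1, which encodes SAP97, a partner of GluA1. Dlg1 had 10.09, 10.02 and 9.97 in CGP, against 10.11, 10.10 and 10.10 in CON, a difference of -0.077 (standard error 0.041, limma adjusted p = 0.535), with every CGP array below every CON array. The groups overlapped for the other genes of the list. Of these, Grip1 was at 0.046, the only difference above 0, Grip2 was at -0.051, and Nsf and Pick1, whose proteins bind GluA2, were at -0.0029 and -0.0010.

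The largest differences among the partner genes were found for proteins that cluster receptors from outside the cell. Lrrtm1, a synaptic adhesion protein, had 9.73, 9.70 and 9.62 in CGP, against 9.54, 9.52 and 9.51 in CON, so that the groups lay apart. The difference was 0.16 (standard error 0.040, limma adjusted p = 0.230), and it passed with a trended and robust variance estimate (limma adjusted p = 0.0411). With that estimate 249 probesets passed, against 51 in the main fit. Nptx2, a pentraxin that binds AMPA receptors and is induced by neuronal activity, had 8.87, 9.06 and 9.02 in CGP, against 8.83, 8.79 and 8.85 in CON. The groups did not overlap, and the difference was 0.16 (standard error 0.055, limma adjusted p = 0.378). In this list 6 of the 7 tested genes had differences above 0, and the groups did not overlap for 4 of the 7, against 17.5% of all tested probesets. The others of these were Lrrtm2 (0.10, standard error 0.041, limma adjusted p = 0.434), with all CGP arrays above all CON arrays, and Nptx1 (-0.097, standard error 0.049, limma adjusted p = 0.510), with all CGP arrays below.

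Adarb1 encodes ADAR2, the enzyme that edits the Gria2 transcript at the pore codon. It had 10.72, 10.72 and 10.70 in CGP, against 10.63, 10.57 and 10.58 in CON, with all CGP arrays above all CON arrays. The difference was 0.12 (standard error 0.035, 95% interval 0.036 to 0.20), with an unadjusted p of 0.0104 that did not pass the adjustment (limma adjusted p = 0.321). The related editing enzyme gene Adar was at -0.012 (limma adjusted p = 0.924), and the delta receptor gene Grid1 was at 0.023 (limma adjusted p = 0.844), with overlapping groups for both.

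**Figure D4:**
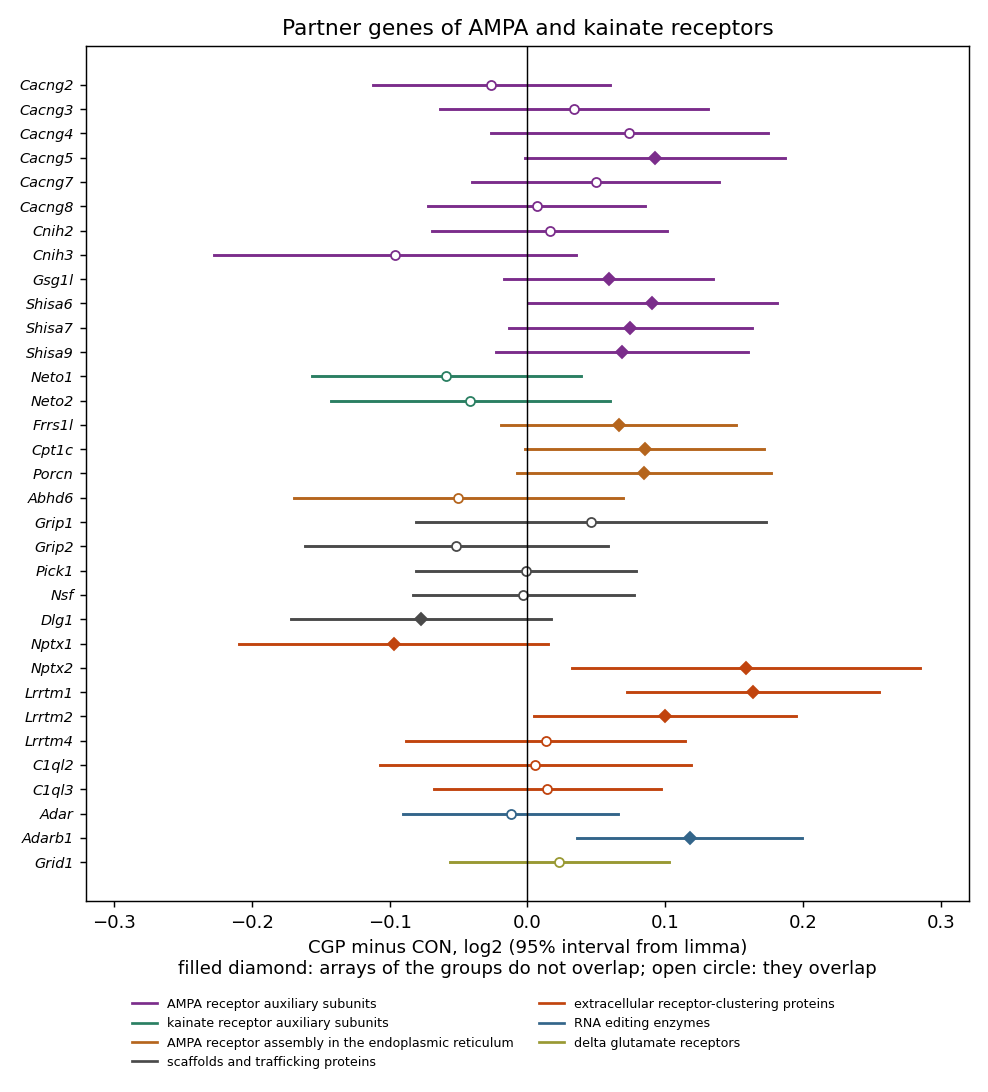
Differences of the 33 tested partner genes. The horizontal axis is CGP minus CON on the log2 scale with its 95% interval from limma (3 arrays in each group), colours give the role, filled diamonds are genes whose groups do not overlap and open circles those that overlap; of the 14 diamonds 12 lie above 0 and 2 below, with Lrrtm1 and Nptx2 at 0.16 the farthest to the right.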

How the data were processed

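Per the labels, hypothalamic RNA pooled from 18 mice a group was labelled with biotin and hybridised to 6 Affymetrix whole-transcript arrays. The authors deposited log2 values made with RMA and Partek, with versions and genome build not given in the sources used here. RMA sets all arrays to 1 distribution, so a shift shared by most genes would not be seen. Of 28471 probesets, the platform annotation gave 1 gene for 18690, several for 1163, and did not list 8618. Of the 18690 Entrez identifiers, 18620 matched RefSeq (GRCm38.p6). Probesets with 1 gene and a mean log2 signal of at least 6 were tested (18239; 451 were dimmer).

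The CGP and CON arrays were compared with limma 3.58.1 (R 4.3.3; lmFit, eBayes, no covariate), adjusted over all tested probesets by Benjamini-Hochberg at 0.05. Of a gene's probesets the brightest was used. The steps were tested on simulated data. The members and lists were chosen with earlier results of these data known. Named are all 9 members, partner genes that passed or otherwise the 1 or 2 with the largest change per list, the 3 genes most like the member with the smallest p, and markers that passed; others were named after their values were seen. The deposited values give no detection calls, and the number of arrays limits the precision. Alternatives were other signal floors, every probeset, centred arrays, trended and robust eBayes, array weights, a replicate block and each array left out.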

Additional observations from a re-analysis of the deposited data

How the results depend on the processing

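None of the 9 subunit genes passed in any of the 13 alternatives that refit the model (lowest limma adjusted p 0.623, Grik5). In the main fit, 0 had an unadjusted p under 0.05. The median over the 9 genes was 0.0013, 0.014 with centred arrays, and -0.015 to 0.022 with 1 array left out. Differences stayed between -0.064 and 0.056. Grik5 was above 0 in all 13, and each other gene changed sign in 1 to 5 of them. A second probeset per gene was not at hand to average. No partner gene passed except Lrrtm1 with trended and robust eBayes (1 of 33). In checks chosen after seeing the data, the groups did not overlap for 1 subunit gene with centred arrays, Grik5 (exact permutation p = 0.10, the smallest possible), against 18.4% of all tested probesets, and for 1 without CGP replicate 1, Grik1, against 33.9%.

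Over all probesets, 51 passed, 28 higher and 23 lower in CGP, and 37 and 18 with centred arrays. A floor of 7 gave 81 (44 higher, 37 lower), trended and robust eBayes 249 (113 and 136), array weights 77 (39 and 38), testing of every probeset 5 (3 and 2), and 9 also reached 1.4-fold. With 1 array left out, 6 to 10 passed, 2 to 5 higher and 3 to 8 lower; the count without CGP replicates 1, 2 and 3 was 9, 10 and 7, and without CON replicates 1, 2 and 3 it was 8, 6 and 8. Fewer arrays were fitted there, and the cause of the other shifts was not tested. No pairing by replicate number was seen: deviations of same-numbered arrays correlated at 0.078, -0.18 and 0.11, and 1 of the 3 CGP arrays had its own number as the best match. With deviations taken within groups of 3 arrays, this check cannot exclude a pairing. Under the replicate block, 6 probesets passed (2 higher, 4 lower) and no subunit or partner gene did.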
